A study of Mus musculus with 9 samples.

Results

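Pou5f1, Sox2, Sall4, Utf1, Fgf4, Dppa2, Dppa3, Dppa4, Dppa5a and Tcl1, a set of core pluripotency genes and genes named for developmental pluripotency association, were followed in mouse embryonic stem cells that lack Zfp352 alone or together with Zfp353. The genes were selected by name, and they and the gene lists below were chosen with earlier results of these data known. Shares of them called, set beside those of all genes, are therefore descriptions and not tests. All 10 were found among the 24411 gene symbols of each expression table. Polyadenylated RNA was measured in 9 libraries, with 3 libraries for each of the genotypes Parental, Zfp352-KO and Zfp352/Zfp353-DKO. Parental cells are the unedited EB5 line, which comes from male E14tg2a cells of the 129Ola strain. In Zfp352-KO cells the zinc finger gene Zfp352, which is transcribed in the early mouse embryo, was deleted with CRISPR-Cas9, a guided DNA-cutting nuclease. In Zfp352/Zfp353-DKO cells Zfp353 was deleted as well. All 3 groups were grown on gelatin in medium with serum and leukemia inhibitory factor, the cytokine that holds mouse stem cells undifferentiated. EB5 carries Oct3/4IRES-BSD-pA/+, a drug-resistance cassette joined to 1 allele of Pou5f1 (the gene for OCT4, also called Oct3/4), so every library came from cells with this altered allele. The labels do not say how many edited clones were used or whether the 3 libraries of each were grown separately, so p-values reflect the scatter of these libraries alone, and it may be technical.

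In embryonic stem cells OCT4 and SOX2 bind DNA as a pair at composite sites, where they keep their own genes and genes such as Nanog, Fgf4 and Utf1 active. SALL4, a zinc finger protein, works with them and also recruits the NuRD deacetylase complex. DPPA2 and DPPA4 are SAP-domain proteins that bind CpG-rich promoters together and can switch on Dux, the factor that starts the transcription program of the 2-cell embryo. Zfp352 belongs to that program.

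Expected counts (the number of reads assigned to a gene, as estimated by RSEM) summed to between 16599004 and 22044820 per library. Zfp352 itself had 41 to 52 counts in Parental, 3 to 10 in Zfp352-KO and 1 to 3 in Zfp352/Zfp353-DKO libraries, lower in both edited genotypes as labelled. No row for Zfp353 was analysed here. Values also moved with transcript length, to a degree that differed between libraries and was slight in some. Spearman's rho across 14249 genes between length and a gene's deviation from its mean over all libraries ran from -0.402 to -0.0825 in Parental, from -0.0656 to 0.394 in Zfp352-KO and from -0.128 to 0.362 in Zfp352/Zfp353-DKO libraries. Genes are not independent replicates in such a correlation. Because of this trend, values of the 10 genes with the trend on length and GC content removed are given where they change a result, and other genes named here were read from the reported fit alone.

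All 10 genes were strongly expressed in Parental cells, as the labelled cell type requires. Levels are given in TPM, a share of all transcripts that accounts for transcript length. Dppa5a, which encodes a KH-domain RNA-binding protein, had the highest level at 3326 ± 21.1 TPM (SD, n = 3) in Parental cells. Pou5f1 followed at 1163 ± 52.3 TPM, then Utf1, a chromatin-bound transcription factor gene, at 405 ± 28, and Sox2 at 352 ± 5.48 TPM. Dppa2 was at 245 ± 4.39, Dppa4 at 230.0 ± 7.32 and Dppa3 at 220.4 ± 14.7 TPM. Sall4 was at 96.4 ± 1.56, Fgf4 at 75.1 ± 4.19 and Tcl1 at 69.2 ± 3.90 TPM. In this order, the libraries of Dppa4 and Dppa3 overlapped, as did those of Fgf4 and Tcl1, and the other neighbours did not. Dppa5a ranked 51 among all symbols by mean Parental level and Tcl1 ranked 2273. Summed over the 10 genes, the level lay between 6001 and 6243 TPM in all 9 libraries, with the 3 genotypes overlapping. The relative spread within a genotype (SD over mean) ran from 0.345% for Dppa2 in Zfp352/Zfp353-DKO cells to 6.92% for Utf1 in Parental cells.

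**Figure D1:**
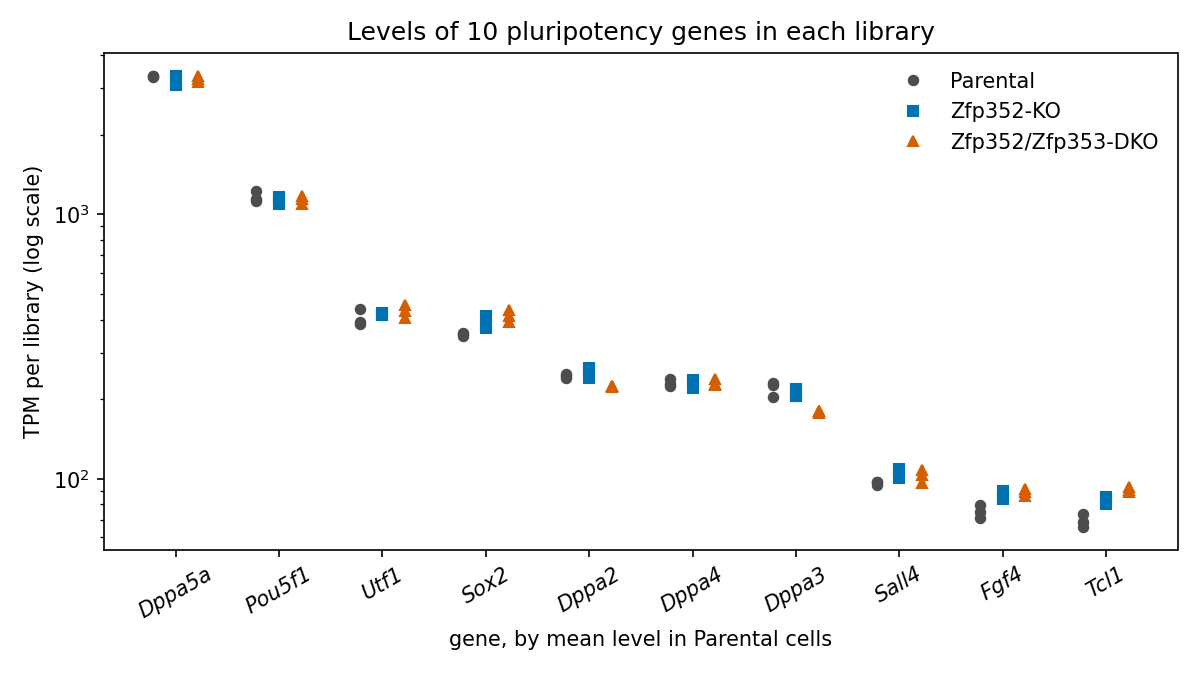
TPM of the 10 genes in each library on a log scale, with genes ordered by mean Parental level and 3 points per genotype. The order of genes is dominated by Dppa5a at 3326 TPM and Pou5f1 at 1163 TPM, and differences between genotypes are small beside differences between genes.

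Expected counts were whole numbers in all 9 libraries for every one of the 10 genes except Dppa5a. The counts of Dppa5a were not whole in 9 of 9 libraries, which means that RSEM divided some reads between it and another transcript, so its values carry that uncertainty. Sox2 lies within the long noncoding gene Sox2ot, which had a mean of 2.32 TPM in Parental cells. Whether the counting used the strand is not given in the sources used here.

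Zfp352/Zfp353-DKO libraries were set against Parental ones to see which of these genes differ where both zinc finger genes are deleted. Tcl1, Fgf4 and Sox2 rose and Dppa3 and Dppa2 fell, by 1.12-fold to 1.29-fold. A gene is called where its adjusted p is under 0.05 (edgeR quasi-likelihood test, Benjamini-Hochberg adjustment over all genes tested). By that rule 5 of 10 genes were called, against 8.47% of the 14300 genes tested (3.65% higher and 4.82% lower). Among the 3783 tested genes with a mean expected count at least that of Tcl1, the member with the fewest counts (1146), 10.1% were called. The standard errors of the 10 log2 fold changes were small, with a median of 0.048 against 0.082 over all genes. Their median absolute log2 fold change was 0.12 against 0.11 over all genes, and the signed medians were 0.01 and 0.00.

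Tcl1, which encodes a co-activator of the AKT kinases, had 65.7, 73.4 and 68.6 TPM in Parental, 80.2, 85.6 and 82.9 in Zfp352-KO, and 89.3, 93.3 and 90.9 in Zfp352/Zfp353-DKO libraries. The 3 genotypes did not overlap, with Parental lowest and Zfp352/Zfp353-DKO highest. In Zfp352/Zfp353-DKO cells Tcl1 rose 1.29-fold by edgeR (log2 fold change 0.36 ± 0.06 (SE), adjusted p = 0.00059). The call held in 19 of 19 alternative settings, with adjusted p up to 0.00992. With the length and GC trend removed, the log2 fold change was 0.45.

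Fgf4 encodes the fibroblast growth factor that stem cells secrete and that activates the ERK kinases, preparing cells for differentiation. It had 75.0, 70.9 and 79.3 TPM in Parental, 89.9, 85.2 and 84.1 in Zfp352-KO, and 89.2, 85.8 and 91.5 in Zfp352/Zfp353-DKO libraries. Every edited library lay above every Parental one, and the edited genotypes overlapped. The rise in Zfp352/Zfp353-DKO cells was 1.15-fold (log2 fold change 0.20 ± 0.05, edgeR adjusted p = 0.0085). Without Parental library 1 the adjusted p was 0.0523, and over all alternatives it ran from 0.000158 to 0.0523.

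Sox2 had 357, 347 and 352 TPM in Parental, 414, 377 and 373 in Zfp352-KO, and 393, 414 and 434 in Zfp352/Zfp353-DKO libraries. Both edited genotypes lay above Parental without overlap, and they overlapped each other. Sox2 was higher by 14.3% in Zfp352/Zfp353-DKO cells on the count scale, with a 95% interval of the log2 fold change from 0.10 to 0.29. Its adjusted p stayed under the threshold in 19 of 19 alternatives, at most 0.0498.

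RefSeq promoter windows of GRCm38.p6 were found for 5 of the 10 genes, and those of the 3 genes that rose are shown because these members moved together. Each is the 250 bases before the annotated start, 5′ to 3′ on the gene's strand, with capitals for the GC box GGGCGG and the CCAAT box CCAAT on either strand.
Sox2, chr3:34649745-34649994, plus strand: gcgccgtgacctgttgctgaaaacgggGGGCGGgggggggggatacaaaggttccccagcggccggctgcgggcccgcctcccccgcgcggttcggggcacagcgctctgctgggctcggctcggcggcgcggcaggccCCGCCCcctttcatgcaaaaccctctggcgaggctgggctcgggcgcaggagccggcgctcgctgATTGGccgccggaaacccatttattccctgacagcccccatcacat
Fgf4, chr7:144861136-144861385, plus strand: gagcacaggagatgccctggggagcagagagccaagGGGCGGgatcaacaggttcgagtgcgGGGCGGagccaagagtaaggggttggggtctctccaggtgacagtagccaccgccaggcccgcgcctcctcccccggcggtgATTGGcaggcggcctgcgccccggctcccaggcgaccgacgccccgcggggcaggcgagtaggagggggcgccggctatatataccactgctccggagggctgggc
Tcl1, chr12:105222738-105222987, minus strand: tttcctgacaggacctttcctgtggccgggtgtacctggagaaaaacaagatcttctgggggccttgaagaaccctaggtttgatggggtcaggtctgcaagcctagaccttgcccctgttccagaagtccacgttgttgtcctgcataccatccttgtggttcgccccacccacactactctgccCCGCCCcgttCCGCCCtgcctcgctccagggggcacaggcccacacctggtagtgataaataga

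Each of these windows held 2 GC boxes, a sequence found in 32.7% of 32851 promoter windows of the same length. Sox2 and Fgf4 each held 1 CCAAT box (33.8% of windows) and Tcl1 held none. The windows of Sox2 and Fgf4 were rich in G and C (72% and 71.2%, with 27 and 21 CpG) and that of Tcl1 less so (57.6%, 7 CpG), against a median of 52.4% and 6 CpG over all windows. The octamer ATGCAAAT (1.6% of windows), the SOX core CATTGT (10.7%) and the TATA box TATAAA (12.4%) were searched on both strands and were not in these 3 windows. Only these exact letters were searched, so variants, such as the run tatatata near the end of the Fgf4 window, were not counted. Among members that were not called, the window of Utf1 held 4 GC boxes, 2 of which overlap, and the first of the 2 annotated Pou5f1 starts held 1. Each of the 2 Pou5f1 windows held 1 CCAAT box, and the second also held 1 SOX core. Such matches describe the letters of a window and are not evidence of binding.

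Dppa3 encodes a maternal factor, also called Stella, that limits the DNA methylation factor UHRF1. Its levels were 230.4, 227 and 203 TPM in Parental, 219, 206 and 206 in Zfp352-KO, and 178, 181 and 180.0 in Zfp352/Zfp353-DKO libraries. All Zfp352/Zfp353-DKO libraries lay below the other 6, while Zfp352-KO and Parental overlapped. In Zfp352/Zfp353-DKO cells Dppa3 fell by 0.34 ± 0.06 on the log2 scale (SE), 1.26-fold lower (edgeR adjusted p = 0.0012, and up to 0.0172 over 19 alternatives, all of which called it). With the length and GC trend removed the value was -0.29.

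Dppa2 had 244, 249.5 and 241 TPM in Parental, 260.3, 263 and 241 in Zfp352-KO, and 223, 224 and 225 in Zfp352/Zfp353-DKO libraries. The Zfp352/Zfp353-DKO libraries were lowest and did not overlap the others. The fall in Zfp352/Zfp353-DKO cells was 0.17 ± 0.05 on the log2 scale (edgeR adjusted p = 0.030). It was the least stable of the 5 calls and was lost in 7 of 19 alternatives. Without Parental library 1 the adjusted p was 0.113, without Parental library 2 it was 0.158, and without Zfp352-KO library 2 it was 0.0509. Without Zfp352/Zfp353-DKO library 2 it was 0.0916 and without library 3 it was 0.0951, within a range of 0.00265 to 0.158 over all alternatives.

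Dppa2 and its partner gene Dppa4 lie next to each other on chromosome 16, at 48310274 to 48319513 and 48283735 to 48294292, with 15981 bases between them. Dppa4 had 224, 228 and 238 TPM in Parental, 231, 236 and 221 in Zfp352-KO, and 238, 227 and 229 in Zfp352/Zfp353-DKO libraries, and all 3 genotypes overlapped. It was not called in Zfp352/Zfp353-DKO cells (log2 fold change -0.03, 95% interval -0.13 to 0.07, edgeR adjusted p = 0.75). Within each library, the ratio of Dppa2 to Dppa4 in TPM was 1.09, 1.10 and 1.01 in Parental, 1.13, 1.12 and 1.09 in Zfp352-KO, and 0.938, 0.988 and 0.983 in Zfp352/Zfp353-DKO cells. So the ratio in Zfp352/Zfp353-DKO libraries lay below that in all other libraries. Dppa2 itself was lowest in these libraries, so the ratio largely restates that difference. This ratio was chosen after the values were seen and was not tested.

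**Figure D2:**
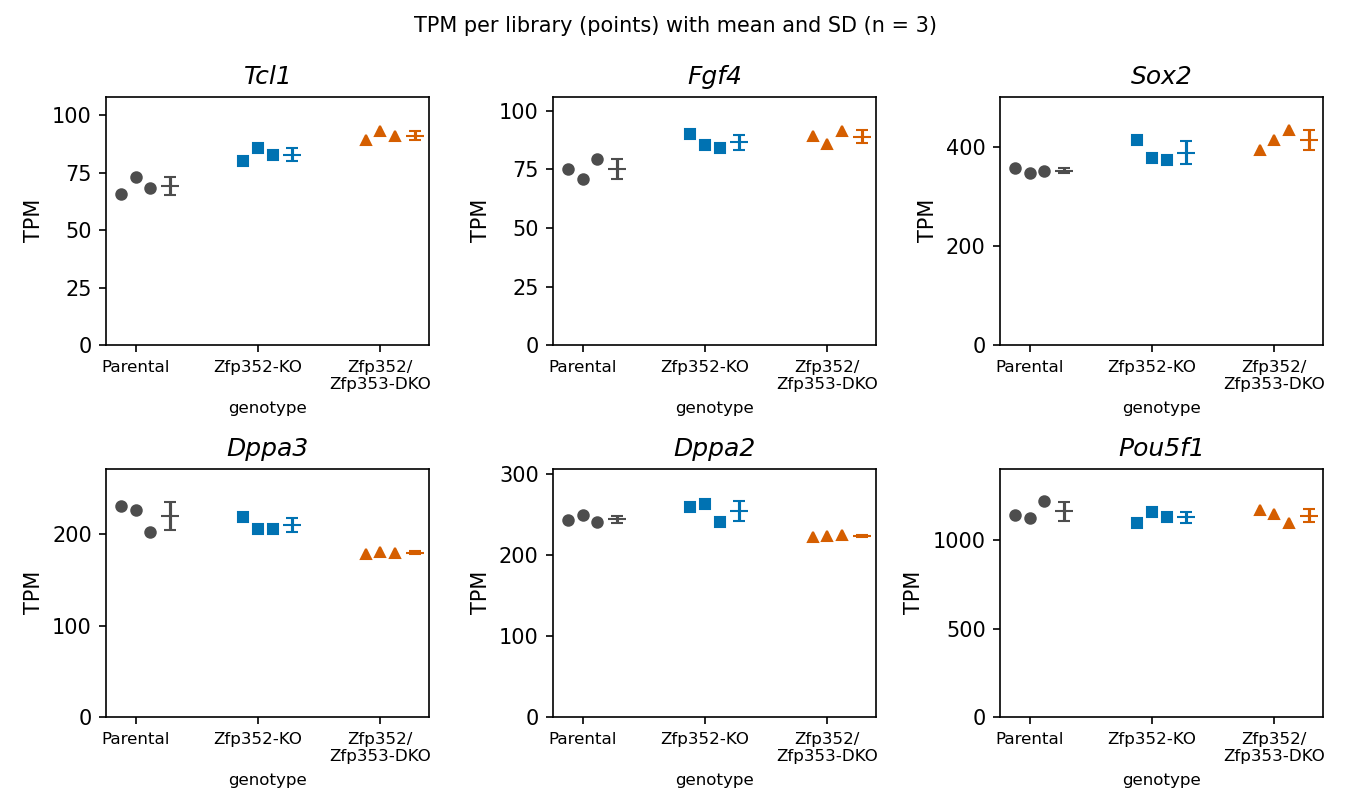
TPM per library (points), with the mean and SD of 3 libraries beside them, for the 5 genes called in Zfp352/Zfp353-DKO against Parental cells and for Pou5f1, with axes from 0. Tcl1, Fgf4 and Sox2 lie above Parental in both edited genotypes, Dppa3 and Dppa2 lie below in Zfp352/Zfp353-DKO cells, and Pou5f1 overlaps between genotypes.

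Pou5f1, Dppa5a, Sall4 and Utf1 also passed no threshold in this comparison. Pou5f1 had 1144, 1122 and 1222 TPM in Parental, 1095, 1157 and 1131 in Zfp352-KO, and 1171, 1146 and 1096 in Zfp352/Zfp353-DKO libraries, with overlap throughout in TPM. Its log2 fold change was -0.07 with a 95% interval of -0.17 to 0.03 (edgeR adjusted p = 0.41). The intervals were -0.18 to 0.03 for Dppa5a, -0.03 to 0.16 for Sall4 and -0.08 to 0.18 for Utf1. Utf1, which has the highest GC content of the 10 transcripts at 63.5%, ran from 386 to 437 TPM in Parental and from 406 to 452 TPM in Zfp352/Zfp353-DKO libraries. With the length and GC trend removed, Utf1 was called higher (log2 fold change 0.20, edgeR adjusted p = 0.00708, against 0.00383 to 0.972 over all alternatives), and the value of Pou5f1 turned to 0.05 (adjusted p = 0.411, against 0.239 to 0.857).

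Zfp352-KO libraries were then set against the same Parental libraries, for the deletion of Zfp352 alone. Tcl1 and Fgf4 rose and none of the 10 genes fell. The 2 calls among 10 genes stand against 7.06% of all genes tested (3.43% higher and 3.64% lower) and 11.1% of those with at least the counts of Tcl1. Tcl1 was higher by 16.9% (log2 fold change 0.23 ± 0.06 (SE), edgeR adjusted p = 0.029) and Fgf4 by 11.5% (0.16 ± 0.05, edgeR adjusted p = 0.044). The medians of the absolute log2 fold changes were 0.09 for the 10 genes and 0.11 for all genes.

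Sox2 and Sall4 were each at a log2 fold change of 0.09 ± 0.04 in Zfp352-KO cells, with edgeR adjusted p of 0.21 for both. For Sall4 the values were 94.6, 97.4 and 97.2 TPM in Parental, 109, 106 and 101 in Zfp352-KO, and 96.1, 103 and 108 in Zfp352/Zfp353-DKO libraries. The Zfp352-KO libraries of Sall4 lay above the Parental ones without overlap, while those of Zfp352/Zfp353-DKO overlapped both. In library-scaled counts (CPM), 5 of the 10 genes did not overlap between Zfp352-KO and Parental libraries, and 27.4% of all genes did not. Pou5f1, which overlapped in TPM, was 1 of these 5 and was lower in Zfp352-KO libraries. Between Zfp352/Zfp353-DKO and Parental it was also 5, against 28.1% of all genes. Dppa3 was at -0.12 (95% interval -0.24 to 0.00), Pou5f1 at -0.09 (-0.19 to 0.01) and Dppa5a at -0.09 (-0.20 to 0.01). Dppa5a ran from 3302 to 3343 TPM in Parental, from 3087 to 3336 in Zfp352-KO and from 3169 to 3334 in Zfp352/Zfp353-DKO libraries. Dppa2 (0.01), Dppa4 (-0.05) and Utf1 (0.00) were closest to 0, with edgeR adjusted p from 0.56 to 0.98.

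Both calls in Zfp352-KO cells depended on single libraries. Tcl1 lost its call when Parental library 1 was left out (adjusted p = 0.163), and likewise for Parental library 3 (0.0605), Zfp352-KO library 2 (0.0938) or Zfp352-KO library 3 (0.0507), in a range of 0.000109 to 0.163 over all alternatives. Fgf4 was lost in 9 of 19 alternatives, among them those without Parental library 1 (adjusted p = 0.157), Parental library 2 (0.138), Zfp352-KO library 1 (0.166), Zfp352-KO library 2 (0.0891) or Zfp352/Zfp353-DKO library 2 (0.0535), and it ranged from 0.00372 to 0.166. With the length and GC trend removed 4 genes were called higher. They were Tcl1, Fgf4, Sox2 (log2 fold change 0.13, adjusted p = 0.0437, but 0.0508 with the replicate block added and up to 0.577 over all alternatives) and Utf1 (0.21, adjusted p = 0.00728, against up to 1.0). Without Parental library 3, Dppa3 was called lower (adjusted p = 0.0381, against up to 0.584).

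**Figure D3:**
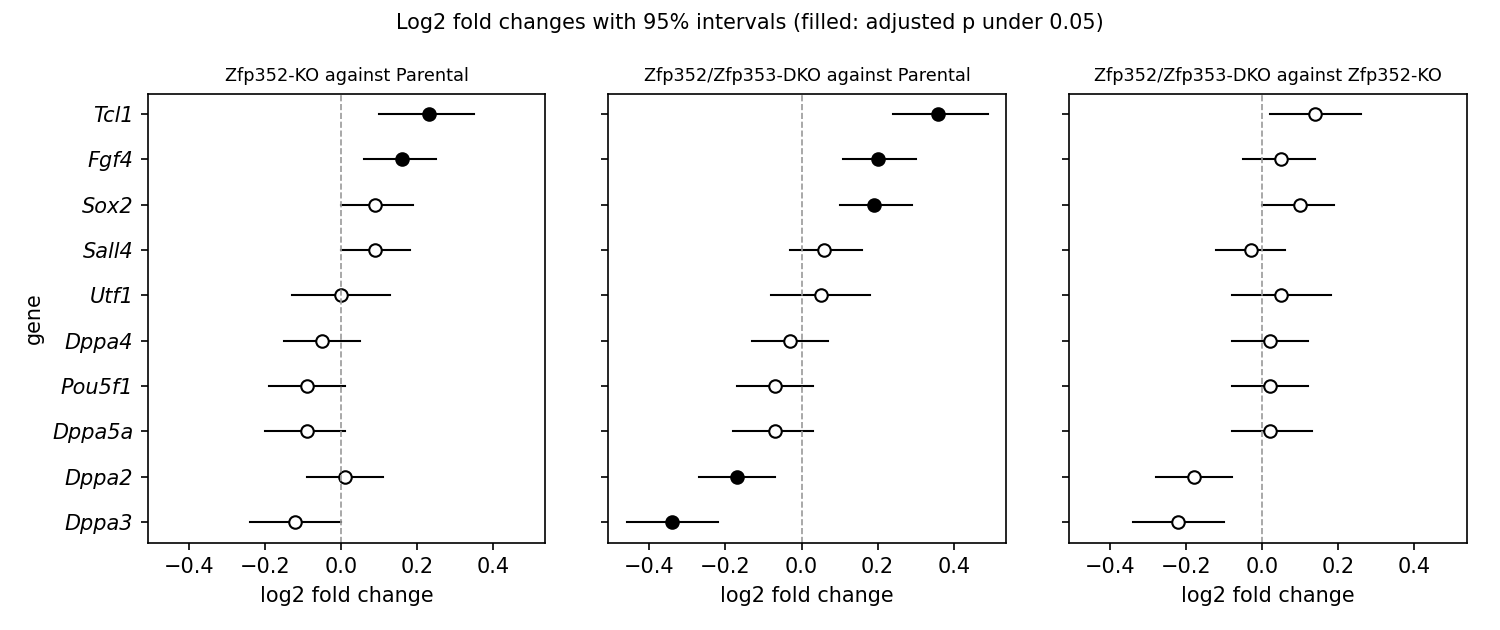
Log2 fold changes (points) with 95% intervals (lines) of the 10 genes in the 3 comparisons, with filled points for genes called at an adjusted p under 0.05. In Zfp352/Zfp353-DKO against Parental, Tcl1 (0.36), Fgf4 (0.20), Sox2 (0.19), Dppa2 (-0.17) and Dppa3 (-0.34) are called, and none is called between the edited genotypes.

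Both comparisons above share the Parental libraries, so the edited genotypes were also compared with each other. By edgeR 0 of the 10 genes were called, and DESeq2 called 0. Among all 14300 genes 15 (0.105%) were called here, and 0.0529% of those with at least the counts of Tcl1. In CPM 3 of the 10 did not overlap, against 11.1% of all genes. Dppa2 was at -0.18 ± 0.05 (SE) with an adjusted p of 0.25 by edgeR and Dppa3 at -0.22 ± 0.06 with an adjusted p of 0.27, so their difference between the edited genotypes was not established at this threshold. With the length and GC trend removed both were called lower in Zfp352/Zfp353-DKO than in Zfp352-KO cells, Dppa2 at an adjusted p of 0.0367 (0.0164 to 0.919 over all alternatives) and Dppa3 at 0.0271 (0.0188 to 0.599). Tcl1 (0.14 ± 0.06, edgeR adjusted p = 0.72) and Sox2 (0.10 ± 0.04, edgeR adjusted p = 0.75) were not called either. For Pou5f1, Dppa4 and Dppa5a the 95% intervals lay between -0.08 and 0.13.

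The genes beside the members on the chromosomes were read from the same fit, taking only neighbours that had a row in the tables. Dppa3 lies on chromosome 6 between Gdf3, a growth factor gene, and Nanog, a core pluripotency factor gene. Neither passed the threshold in Zfp352/Zfp353-DKO against Parental cells by edgeR (Gdf3 at 0.09, adjusted p = 0.27; Nanog at -0.02, adjusted p = 0.81). The ratio of Dppa3 to Nanog in TPM was 0.572, 0.562 and 0.502 in Parental, 0.509, 0.487 and 0.488 in Zfp352-KO, and 0.460, 0.444 and 0.419 in Zfp352/Zfp353-DKO libraries. Thus the Zfp352/Zfp353-DKO ratios lay below all others. Dppa3 itself was lowest in these libraries, so the ratio largely restates that difference, and it was not tested. Fgf4 lies on chromosome 7 between the growth factor genes Fgf3 and Fgf15, which were at 1.13 and 2.00 TPM in Parental cells and were not called. Beside Sall4, the phospholipid transporter gene Atp9a was higher in Zfp352/Zfp353-DKO cells (0.27, edgeR adjusted p = 0.014). Gm4737, the nearest such gene on the other side of Dppa4 at 2128657 bases, was lower in Zfp352-KO (-0.17, edgeR adjusted p = 0.039) and Zfp352/Zfp353-DKO cells (-0.22, 0.0093). No other tested neighbour that is not itself a member was called. Of all genes tested, 7.06% were called with Zfp352 deleted and 8.47% with both deleted, so these calls are not read as an effect of position. Of the relatives of Tcl1, Tcl1b3 and Tcl1b5 were listed at 0 in every library.

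Other genes of the pluripotency network were read from a list of 24 (all tested). In Zfp352/Zfp353-DKO against Parental cells 4 rose and none fell, against 3.65% of all genes called higher, and the list's median log2 fold change was 0.07 against 0.00. The naive-state transcription factor genes Tfcp2l1 (0.37 ± 0.06, edgeR adjusted p = 0.00042) and Tbx3 (0.30 ± 0.05, 0.00042) rose. Zfp281 (0.27 ± 0.06, 0.0041) and Nr0b1, which encodes a nuclear receptor that binds OCT4 (0.20 ± 0.06, 0.049), rose as well. In Zfp352-KO cells 3 rose (Tbx3, Tfcp2l1 and Zfp281), none fell, and 3.43% of all genes were called higher.

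Among 14 relatives of SALL4 and NuRD subunits, Sall1, a paralog of Sall4, rose in Zfp352-KO (0.21 ± 0.05, edgeR adjusted p = 0.024) and Zfp352/Zfp353-DKO cells (0.20 ± 0.05, 0.023), and no other gene of the list was called. A single call among 14 genes is near the share of all genes called (7.06% and 8.47%). Of 13 tested relatives in the POU and SOX families, Sox21 was higher in Zfp352/Zfp353-DKO cells (0.43 ± 0.07, edgeR adjusted p = 0.0011). Pou3f1, a POU factor gene of primed and neural cells, fell by 0.66 ± 0.08 (2.4e-05) and Sox11 by 0.37 ± 0.07 (0.0023). In Zfp352-KO cells 2 of the 13 were higher and 2 lower, where 3.43% and 3.64% of all genes were. In Zfp352/Zfp353-DKO cells 1 was higher and 2 were lower, where 3.65% and 4.82% of all genes were.

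Of 25 genes for FGF receptors and the RAS and ERK kinase cascade, through which FGF4 acts, 1 was lower in each comparison with Parental cells, a share near that of all genes called lower (3.64% with Zfp352 deleted and 4.82% with both deleted). It was Hras in Zfp352-KO cells (-0.25 ± 0.06, edgeR adjusted p = 0.029) and Fgfr3, an FGF receptor gene at 0.917 TPM in Parental cells, in Zfp352/Zfp353-DKO cells (-1.03 ± 0.26, 0.018). Among 18 tested TCL1 relatives and genes of the PI3K and AKT pathway, Akt1, the kinase gene whose product TCL1 binds, was lower in Zfp352/Zfp353-DKO cells (-0.23 ± 0.05, edgeR adjusted p = 0.0076). It was the only gene of that list called lower there, a share near the 4.82% of all genes called lower.

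Among 10 genes for the DPPA3 partner UHRF1 and for DNA methylation, the maintenance methyltransferase gene Dnmt1 rose in Zfp352/Zfp353-DKO cells (0.44 ± 0.04, edgeR adjusted p = 2.0e-06), as did Tet2, which encodes a 5-methylcytosine dioxygenase (0.46 ± 0.08, 0.0019). Dnmt3a was lower (-0.22 ± 0.05, 0.0053). In Zfp352-KO cells Dnmt1 (0.45 ± 0.04) and Tet2 (0.47 ± 0.08) rose too. Of the 10 genes 2 rose in Zfp352-KO cells, where 3.43% of all genes were called higher. In Zfp352/Zfp353-DKO cells 2 rose and 1 fell, where 3.65% of all genes were called higher and 4.82% lower. No other gene of the list, which holds Uhrf1, was called in these comparisons. Of 22 tested genes of the 2-cell program downstream of DUX, 5 were higher and 4 lower in Zfp352-KO cells. In Zfp352/Zfp353-DKO cells 2 were higher and 4 lower. The list holds the deleted gene Zfp352 itself, which counts among the 4 lower genes in both comparisons. Over all genes the shares were 3.43% and 3.64%, and 3.65% and 4.82%. Tdpoz4, whose family carries TRAF and POZ domains, fell by 4.11 ± 0.37 in Zfp352-KO (edgeR adjusted p = 2.2e-06) and by 5.35 ± 0.43 in Zfp352/Zfp353-DKO cells (1.8e-07). Zscan4f, a 2-cell marker gene with close copies that can divide reads, was higher in Zfp352-KO than in Parental cells (0.36 ± 0.05, edgeR adjusted p = 0.00012) and lower in Zfp352/Zfp353-DKO than in Zfp352-KO cells (-0.26 ± 0.05, 0.026). Its mean levels were 110.5 TPM in Parental cells, 146 with Zfp352 deleted and 121 with both deleted. Of 3 tested relatives of Dppa5a, only the KH-domain gene Khdc3 was called. It fell by 0.32 ± 0.05 in Zfp352-KO (edgeR adjusted p = 0.0015) and by 0.44 ± 0.05 in Zfp352/Zfp353-DKO cells (2.4e-05), where 3.64% and 4.82% of all genes were called lower. Dppa5a itself was not called.

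Markers of other cell types that such cultures can hold moved with genotype, and their counts stand against 3.64% of all genes called lower with Zfp352 deleted and 4.82% with both deleted. Of 12 tested fibroblast-type markers 8 fell and none rose in each edited genotype, and the summed level of all 14 ran from 359 to 371 TPM in Parental, 257 to 273 in Zfp352-KO and 213 to 229 in Zfp352/Zfp353-DKO libraries. Of 11 tested trophectoderm markers 5 fell in each, with sums over 12 of 408 to 464, 299.8 to 305 and 267 to 279 TPM. Keratin genes made up much of these sums, with Krt8 at 139, Krt18 at 120.1 and Krt19 at 85.2 TPM in Parental cells. These keratin genes fell in both edited genotypes. Primitive endoderm markers summed to 234 to 244, 196 to 217 and 185 to 201 TPM over 13 genes, and mesendoderm markers to 9.99 to 15.3, 5.46 to 7.35 and 5.80 to 6.63 TPM over 9. Of 12 tested primitive endoderm markers 3 fell in Zfp352-KO cells, namely Sparc, Col4a1 and Col4a2. In Zfp352/Zfp353-DKO cells 4 fell, these among them, and 1, Lama1, rose. Sparc alone was at 153 TPM in Parental cells, so it weighs most in the sum of that list. Of 5 tested mesendoderm markers 3 and 2 fell, and of 5 tested neuroectoderm markers 1 fell in each. The sums of the 8 listed neuroectoderm markers overlapped. No gene of these 5 lists was at 0 in every library, but some stayed near the floor. Under 1 TPM in every library were 3 fibroblast-type, 1 trophectoderm, 4 primitive endoderm, 3 mesendoderm and 5 neuroectoderm markers. In bulk samples fewer cells of a type and less RNA per cell cannot be told apart, and the part of these markers in the differences of the 10 genes was not tested.

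**Figure D4:**
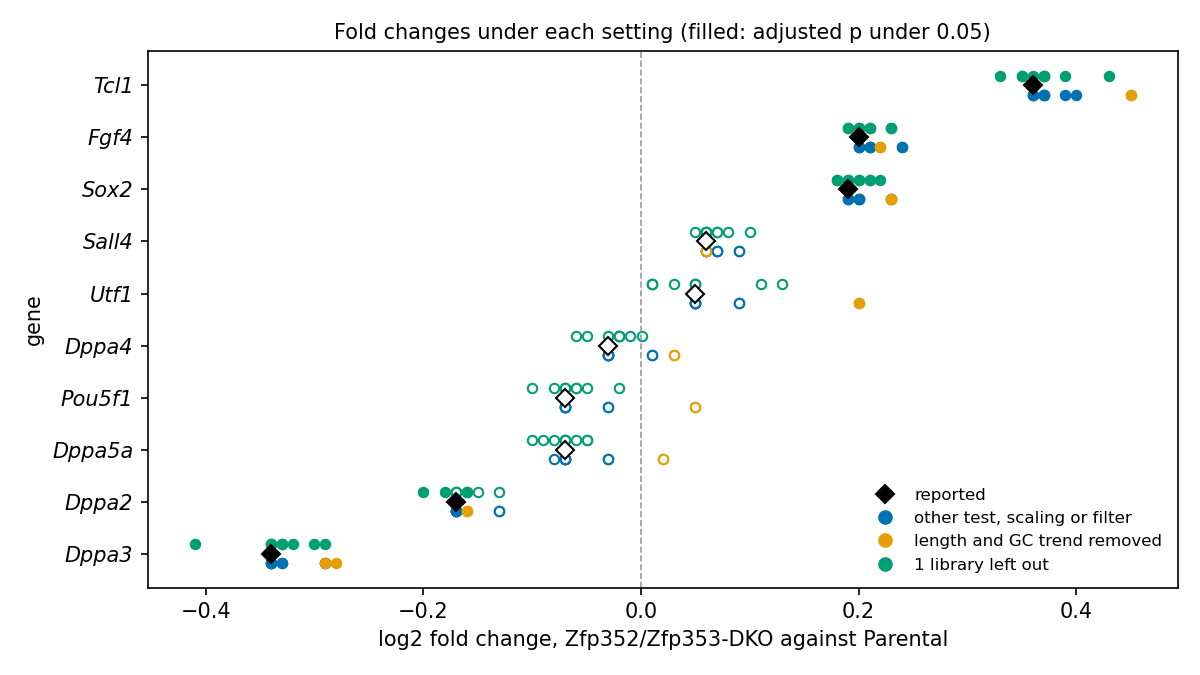
Log2 fold change of each of the 10 genes in Zfp352/Zfp353-DKO against Parental cells under every setting, with diamonds for the reported value and filled symbols for an adjusted p under 0.05. Tcl1, Sox2 and Dppa3 are filled throughout, Dppa2 is open in 7 of 19 alternatives, and Utf1 is filled where the length and GC trend is removed.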

How the data were processed

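Stranded libraries of polyadenylated RNA were sequenced from 1 end, per the labels' protocols. RSEM 1.3.3, STAR 2.7.8a, Trim Galore 0.6.6 and mm10 are named, per the submitters' processing notes, and the settings were not given in the sources used. Per the file headers, the authors deposited expected counts, TPM, FPKM and transcript lengths in bases for each of 24411 symbols. Of the deposited expected counts 9.27% were not whole (tolerance 1e-09, also for single genes). The FPKM values the authors deposited were not used.

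Rounded expected counts of all 9 libraries entered 1 edgeR fit (version 4.0.16, R 4.3.3) with a mean per genotype and no block, using filterByExpr, TMM factors (0.992 to 1.01), glmQLFit and two-sided glmQLFTest, which left 6 residual degrees of freedom. All 10 members were among the 14300 genes kept. Standard errors come from the F statistic. Alternatives were other scalings, no filter, DESeq2 1.42.0, limma-trend (limma 3.58.1) on log2(TPM + 1) and log2(TPM + 0.1), the 6 libraries compared, a replicate block, removal of a local regression trend (span 0.3) on length and GC content of GENCODE GRCm38 transcripts (99.6% of tested genes), and omission of each library. The fit was tested on simulated data. Coordinates are 1-based RefSeq positions of GRCm38.p6, the assembly called mm10. The members and lists were chosen with earlier results of these data known. The named genes are the members, Zfp352 and Nanog, from each list at most 4 called genes per comparison, by adjusted p, neighbours, and the 3 genes most like each called member. A result of the TCL1 and AKT list is not reported here.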

Additional observations from a re-analysis of the deposited data

How the results depend on the processing

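Of 570 refits of single members, 500 kept direction and side of the threshold, 21 lost a call, 8 gained one with the same sign and 41 changed sign. Of the sign changes 2 passed the threshold, both for Utf1 in Zfp352-KO cells with the trend removed, and no member changed sign in a comparison where it was called. In Zfp352-KO against Parental, 1 member was called with library totals, with either limma-trend fit and with the replicate block (Fgf4 at an adjusted p of 0.0717 in edgeR with the block), and 4 once the trend on length and GC was taken out (3 with the block added), against 2. All genes called there were 1010, and 359 and 352 by limma-trend, 569 with the replicate block. In Zfp352/Zfp353-DKO against Parental, limma-trend called 578 and 570 genes against 1211, and trend removal gave 793 higher and 670 lower against 522 and 689. Between the edited genotypes 66 genes were called without the filter, 27 by DESeq2, 1 by each limma-trend fit, 3 with the 6 libraries alone, and 55 (45 with the block) with the trend removed, against 15. Trend removal, with or without the block, called 2 members there against 0.

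With 1 library left out, calls ran from 210 to 1552 genes and 0 to 2 members in Zfp352-KO against Parental, from 449 to 1337 genes and 3 to 5 members in Zfp352/Zfp353-DKO against Parental, and from 3 to 21 genes between the edited genotypes. Without Parental library 1 the 3 members were Dppa3, Sox2 and Tcl1.

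Sign changes lay close to 0 except for Utf1. Trend removal, without and with the block, turned Pou5f1 to 0.06 and 0.06 in Zfp352-KO and to 0.05 and 0.05 in Zfp352/Zfp353-DKO against Parental, and to -0.01 and -0.01 between the edited genotypes. It turned Dppa4 to 0.0019 and 0.0019 and to 0.03 and 0.03, Dppa5a to 0.0036 and 0.0035 and to 0.02 and 0.02, and Utf1 to 0.21 and 0.22 in Zfp352-KO and to -0.01 and -0.01 between the edited genotypes. Utf1 in Zfp352-KO was also at 0.0022 with size-factor scaling and DESeq2, 0.0016 without the filter, 0.05 by limma-trend, 0.0002 with 6 libraries and 0.00023 with the block. Dppa4 in Zfp352/Zfp353-DKO was at 0.01 by limma-trend. With 1 library left out, the ranges that crossed 0 were -0.04 to 0.08 for Utf1 and -0.02 to 0.05 for Dppa2 in Zfp352-KO, -0.06 to 0.0013 for Dppa4 in Zfp352/Zfp353-DKO, and, between the edited genotypes, -0.02 to 0.07 for Pou5f1, -0.05 to 0.0016 for Sall4, -0.02 to 0.05 for Dppa4 and -0.02 to 0.06 for Dppa5a. The cause of these changes was not tested.

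Same-numbered libraries of different genotypes had correlations of -0.0767 to 0.106 between their deviations from the group means, so the numbers were not taken to pair the samples, and not every library correlated best with its own number. Added to the reported fit, the block ended the call of Fgf4 in Zfp352-KO cells and no other member's call, and added to the trend-removed fit it ended that of Sox2 there (adjusted p = 0.0508). The 95% intervals, such as -0.17 to 0.03 for Pou5f1, show what 3 libraries a genotype leave unresolved.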

Other observations

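For each member called in a comparison, the tested genes whose log2 CPM was most like it over the 9 libraries were listed by Pearson's r, as a description. The points share genotype, library and the length trend, and high values are common when 14300 genes are searched. Tcl1 was most like Ints7 (r = 0.975), Slc7a3 (0.960) and Gfpt2 (0.958). Slc7a3, a cationic amino acid transporter gene, was at 101 TPM in Parental cells, 126 with Zfp352 deleted and 132 with both deleted. Fgf4 was most like Serpinb9e (0.983), Klhl15 (0.983) and Svil (0.978). Dppa3 was most like 2810004N23Rik (0.980), Sohlh1 (0.971) and Gm4971 (0.968), and Sohlh1, a germ cell transcription factor gene, went from 0.860 to 0.733 and 0.463 TPM. Dppa2 was most like Fbxo15 (0.949), Gemin4 (0.942) and Pabpc4 (0.942). Fbxo15, an F-box gene known as a stem cell marker, was at 427 TPM in Parental, 434 with Zfp352 deleted and 400.0 with both deleted. The 3 genes most like Sox2, Gm14430, Gm14434 and Gm4724, had the same r of 0.972 and the same mean levels, so they count as 1 measurement.

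Among the members themselves, Dppa2 and Dppa3, which lie on different chromosomes, had an r of 0.869 over the 9 libraries. Both were lowest in the Zfp352/Zfp353-DKO libraries, so this r holds that genotype difference and is no separate evidence that they vary together. Dppa2 and its neighbour Dppa4 had an r of 0.234. Pou5f1 was most like Dppa4 (0.824) and Dppa5a (0.789) and ran against Sall4 (-0.819). These values also hold the length trend of the libraries, with transcripts of 639 bases for Dppa5a, 1353 for Pou5f1, 1524 for Dppa4 and 5046 for Sall4.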
